A study of Homo sapiens with 9 samples.

Results

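The genes described here build cholesterol and fatty acids or govern that synthesis. They were chosen as 33 named genes, taken as each gene's brightest probe set, in HEK293 cells, an established line derived from human embryonic kidney. A probe set, a group of short array probes for one transcript, had to name that gene alone in the platform annotation. By this rule 29 of the 33 genes were found, of 19775 genes so named on the array, with 64 probe sets of 54613. FDFT1, CYP51A1, FADS1 and ACSL3 had none, so their expression was not analysed here. The rule set no condition on a difference between groups and used the signals only to pick each gene's brightest probe set over all 9 arrays. The 33 genes were, however, listed with earlier results of these data known.

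All 9 samples were HEK293 cells transiently transfected with surfactant protein C, a small hydrophobic protein that alveolar type II cells of the lung make as a proprotein. The 3 groups of 3 arrays carried the wild-type protein (WT, the control), the form without exon 4 (Ex4) and the form with the L188Q substitution (LQ). Every group therefore carried a surfactant protein C construct, and no untransfected or empty-vector cells were analysed here. The labels do not give the promoter of the constructs, the time after transfection, the share of cells transfected or whether the arrays of a group came from separate transfections. The spread behind every p-value is therefore that between these arrays, which may be technical.

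Cholesterol is made from acetyl-CoA through mevalonate, farnesyl diphosphate, squalene and lanosterol by enzymes that sit largely on the endoplasmic reticulum (ER). The transcription factors SREBP-1 and SREBP-2, the products of SREBF1 and SREBF2, are held in the ER membrane with SCAP by INSIG proteins while sterol is plentiful, and when sterol falls they travel to the Golgi, are cut there and turn on the sterol and fatty acid genes. Because this control lies in the ER membrane, the pathway is often examined when misfolded proteins load the ER.

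Promoters of these genes commonly carry a sterol regulatory element (SRE), bound by SREBP, together with binding sites for NF-Y (the CCAAT box) and Sp1 (the GC box). The letters searched were TCACNCCAC for the SRE, CCAAT for the CCAAT box and GGGCGG for the GC box, on both strands, in the 250 bases before the most upstream start that RefSeq (GRCh38.p14) gives each gene. Of the 33 genes 29 had such a window, among them CYP51A1, FADS1 and ACSL3. A CCAAT box was present in 17 of 29 windows (58.6%), against 33.03% of 27305 genes with a window, and a GC box in 25 of 29 (86.2%, against 42.2%). That background took every gene with a window, whatever its type or expression, so it was not matched to the members. The strict SRE letters were found in 1 of 29 (3.45%, against 0.868%), that of SREBF2, on the strand of the gene. SREBF2-AS1 overlaps this window on the genome. Only the exact letters before 1 start per gene were searched, so a missing match cannot show that a gene lacks an SRE. The windows of HMGCS1, whose result turned on 1 WT array, of MSMO1, which had the lowest LQ signals relative to WT among the representative probe sets of the sterol enzymes, and of SCD, whose probe sets gave different calls, are shown with CCAAT boxes on either strand in capitals. For SREBF2 the bases around the SRE are shown, with its letters in capitals. HMGCS1 was read from chr5:43313413-43313662, minus strand, MSMO1 from chr4:165327419-165327668, plus strand, SCD from chr10:100346983-100347232, plus strand, and SREBF2 from chr22:41832962-41832990, plus strand.
HMGCS1: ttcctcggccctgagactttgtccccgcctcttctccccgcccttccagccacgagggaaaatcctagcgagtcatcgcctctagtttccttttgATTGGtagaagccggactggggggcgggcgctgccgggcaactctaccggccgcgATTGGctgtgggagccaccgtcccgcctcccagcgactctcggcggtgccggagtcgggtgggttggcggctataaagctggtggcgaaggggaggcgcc
MSMO1: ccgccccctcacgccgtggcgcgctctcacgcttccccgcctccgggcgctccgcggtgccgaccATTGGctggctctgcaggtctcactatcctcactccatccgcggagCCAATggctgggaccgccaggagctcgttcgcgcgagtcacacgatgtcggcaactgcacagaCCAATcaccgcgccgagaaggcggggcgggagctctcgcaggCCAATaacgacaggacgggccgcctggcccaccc
SCD: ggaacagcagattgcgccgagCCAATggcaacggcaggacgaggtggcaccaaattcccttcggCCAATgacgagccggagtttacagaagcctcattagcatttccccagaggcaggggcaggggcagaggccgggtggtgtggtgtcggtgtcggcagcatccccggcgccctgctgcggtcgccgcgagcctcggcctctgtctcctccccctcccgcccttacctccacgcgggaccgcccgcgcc
SREBF2: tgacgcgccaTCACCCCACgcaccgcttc

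Values are MAS5 signals, linear intensities that the authors deposited, and changes are differences of log2(signal + 16) with their standard error (SE) from one limma model over the 9 arrays. Intervals are 95% intervals of the change, and a gene passed where the Benjamini-Hochberg adjusted p over 32768 tested probe sets was under 0.05. Probe sets whose mean lay under percentile 40 were not tested, which left 28 of the 29 genes. MVD, which makes isopentenyl diphosphate, was the one left out, at 306.3, 375.4 and 284.1 (WT), 146.7, 103.1 and 67.4 (Ex4) and 471.7, 239.7 and 64.8 (LQ), below the array median on 8 of 9 arrays.

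The array medians over all probe sets, dim ones included, were 506.4 to 524.4 in WT, 316.1 to 434.3 in Ex4 and 303.9 to 371.8 in LQ. The group differences therefore depend on how arrays are scaled. The median over the tested genes alone differed little without centring, at 10.99 to 11.02 on the log2 scale in WT, 10.925 to 11.02 in Ex4 and 10.935 to 10.97 in LQ. Centring on the median of all probe sets thus raises the tested genes of both mutants against WT. The median of the 28 genes was 12.13 to 12.46 on the log2 scale in WT, 11.98 to 12.54 in Ex4 and 12.17 to 12.31 in LQ, and the groups overlapped. The 3' to 5' signal ratio of GAPDH, a sign of RNA integrity, was 1.21 to 1.43 in WT, 0.956 to 1.22 in Ex4 and 1.06 to 1.09 in LQ. That of ACTB did not follow it, at 1.05 to 1.27 in WT, 1.15 to 1.48 in Ex4 and 1.15 to 1.23 in LQ. The part of these ratios in the results was not tested. The cells showed the markers of the line, since all 6 HEK293 markers lay above the array median on every array. Of the other lists, blood cells had 1 of 4 markers and fibroblasts 1 of 4 above it on every array (CD79A and COL1A1), and alveolar type II cells 2 of 5 measured (SFTPB and LAMP3). Hepatocytes and adipocytes had none of 5 and none of 4 there, and ALB, ADIPOQ, LEP, PTPRC, LUM and SFTPD lay below it on all 9. The summed signal of the hepatocyte markers was nonetheless 3318.7 to 4833.0 in WT, 1240.5 to 2461.7 in Ex4 and 961.4 to 1653.6 in LQ, and that of the fibroblast markers 6194.0 to 7428.8, 4384.5 to 5823.6 and 3055.1 to 4170.3. That of the blood cell markers was 1790.2 to 2531.1, 1212.2 to 1430.6 and 1145.9 to 1291.3, that of the adipocyte markers 721.4 to 1314.7, 284.3 to 1131.5 and 232.8 to 464.7, and that of the type II markers 3668.8 to 4741.4, 3056.6 to 4096.8 and 3571.8 to 4377.9. The first 3 sums were lower in both mutants than in WT, as were the array medians over all probe sets. The largest WT signals in these sums were those of SERPINA1 (1976.6 to 3491.3), COL1A1 (5285.9 to 6163.9) and CD79A (1081.1 to 1214.8). The sums cannot tell whether any such cells were present, and what lay behind their differences was not tested.

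LQ against WT asked whether the substitution changes lipid synthesis transcripts. None of the 28 genes passed on its representative probe set, while 7.32% of all 14018 genes did (limma), and 7 of 28 had an unadjusted p under 0.05 (25.0%, against 30.6% of all genes). The changes ran from -0.54 for MVK to 0.56 for STARD4, with 15 of 28 positive and a median of 0.0022, beside -0.09 for all genes. The median depends on the scaling and on single arrays. With any 1 of the WT or LQ arrays left out it was negative, at -0.095 to -0.021. After median centring, in which each array is shifted to a common median signal, it was 0.58, with all 28 genes positive, beside 0.49 for all genes. The difference between the medians of these genes and of all genes was 0.09 under both scalings. Centring shifts every gene of an array equally, so it could not change this difference. This difference was -0.04 after quantile normalization and -0.03 with the filter at percentile 60. It was 0.031 to 0.058 with any 1 of the WT or LQ arrays left out. For 24 of 28 genes (85.7%) the interval lay within 2-fold either way, as it did for 50.6% of all genes. The 28 genes were brighter at the median than all tested genes, and their median SE was 0.217, against 0.257. These shares were not matched for brightness.

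**Figure D1:**
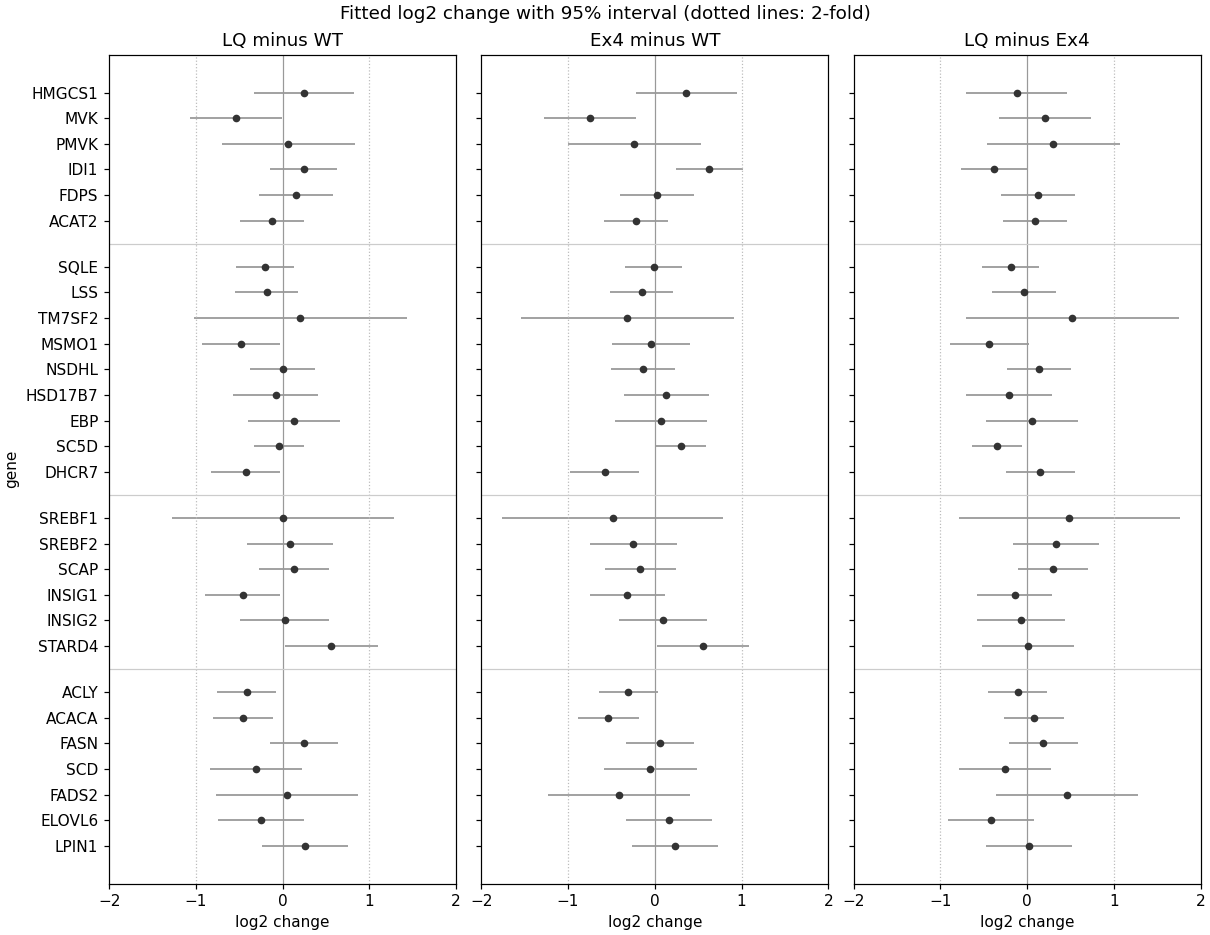
The 3 panels plot the fitted log2 change of each of the 28 tested genes (point) with its 95% interval (bar) for LQ minus WT, Ex4 minus WT and LQ minus Ex4, on a shared axis with dotted lines at 2-fold. For LQ against WT the points run from -0.54 (MVK) to 0.56 (STARD4), and the widest intervals belong to SREBF1 and TM7SF2.

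Ex4 against WT asked the same of the deletion, with the same WT arrays as control. None of the 28 genes passed, nor did any of 14018 genes (0% by limma on representative probe sets, with 27.2% at an unadjusted p under 0.05), and 6 of 28 members had an unadjusted p under 0.05 (21.4%). Changes ran from -0.75 for MVK to 0.63 for IDI1, with 11 of 28 positive and a median of -0.09, beside -0.08 for all genes. With each array centred on its median these became 25 of 28 positive and 0.40, beside 0.41 for all genes. The interval lay within 2-fold for 21 of 28 genes (75.0%, against 52.7% of all genes), shares again not matched for brightness.

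The mutants were also compared with each other. No member passed in LQ against Ex4, nor did any of 14018 genes (0%), and 1 of 28 had an unadjusted p under 0.05 (3.57%, against 4.19% of all genes). Changes ran from -0.43 for MSMO1 to 0.52 for TM7SF2, with a median of 0.04. The interval lay within 2-fold for 24 of 28 genes (85.7%, against 68.1% of all genes, not matched for brightness). Larger differences between the mutants lie outside the intervals of those genes.

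Groups that did not overlap were counted as a description, since 3 arrays against 3 cannot reach an exact permutation p under 0.1. In LQ all 3 arrays lay above all WT arrays for 2 genes, STARD4 and FASN (7.14%, against 15.7% of all genes), and below them for 7 genes, MVK, SQLE, MSMO1, INSIG1, ACLY, ACACA and SCD (25.0%, against 23.2%). In Ex4 they lay above for IDI1 and SC5D (7.14%, against 9.07%) and below for MVK, DHCR7 and ACACA (10.7%, against 14.9%). LQ lay above Ex4 for SREBF2 (3.57%, against 5.91%) and below it for IDI1, SC5D and ELOVL6 (10.7%, against 6.47%). These shares were near or below those of all genes, apart from the last.

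**Figure D2:**
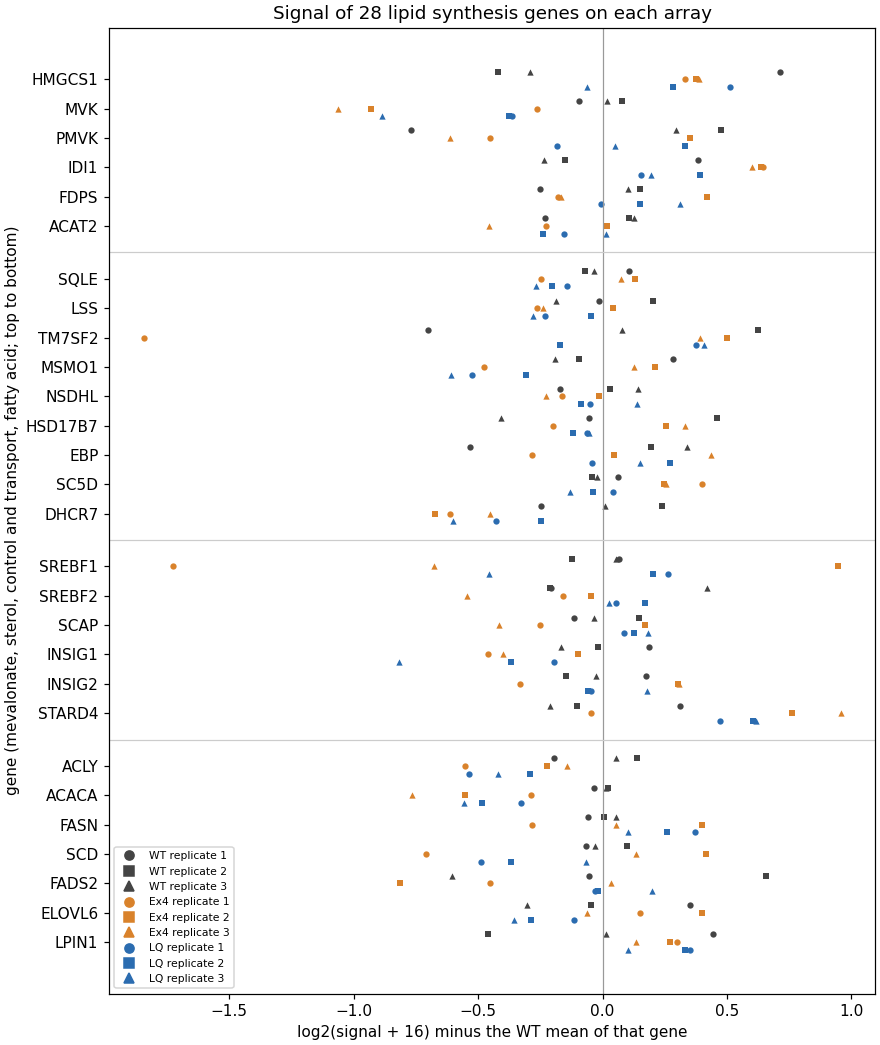
Each row is 1 of the 28 tested genes, and each point 1 array, at its log2(signal + 16) minus the mean of the 3 WT arrays for that gene, coloured by group and shaped by replicate number. MVK, DHCR7 and ACACA have their Ex4 points below every WT point, STARD4 has its LQ points above every WT point, and Ex4 replicate 1 lies far to the left for TM7SF2 and SREBF1.

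In the mevalonate arm 6 genes were tested. HMGCS1 joins acetoacetyl-CoA and acetyl-CoA at the start of the arm. Its signal was 8165.8, 3709.0 and 4058.5 on WT replicates 1, 2 and 3, 6261.2, 6457.2 and 6502.5 on Ex4 replicates 1, 2 and 3, and 7104.1, 6062.8 and 4760.8 on LQ replicates 1, 2 and 3, and signals below are given in the same order. WT replicate 1 stood above every other array and the other 2 WT arrays below all of them, so the mutants lay inside the WT range. The change was 0.25 ± 0.27 (adjusted p = 0.57, interval -0.33 to 0.82) in LQ and 0.36 ± 0.27 (adjusted p = 0.41, interval -0.22 to 0.94) in Ex4. Without WT replicate 1 HMGCS1 passed in both, at 0.60 (limma adjusted p = 0.047) and 0.72 (adjusted p = 0.032). In that fit 17.8% of all genes passed in LQ and 13.8% in Ex4, against 7.14% and 10.7% of the members, and this background also applies to the calls of IDI1, DHCR7 and ACLY without that array given below. On the log2 scale WT replicate 1 exceeded the mean of the other 2 WT arrays by 1.07, a size that 9.32% of all genes reached or passed in either direction. The second HMGCS1 probe set had 0.10 in LQ and -0.12 in Ex4.

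MVK phosphorylates mevalonate. Its signal was 2809.6, 3167.6 and 3041.1 (WT), 2501.9, 1567.5 and 1428.4 (Ex4) and 2332.2, 2312.3 and 1616.2 (LQ), and both mutants lay below every WT array. The log2 change was -0.75 ± 0.24 (adjusted p = 0.11, interval -1.28 to -0.22) in Ex4 and -0.54 ± 0.24 (adjusted p = 0.17, interval -1.07 to -0.01) in LQ, and it did not pass in either. In Ex4 it passed without Ex4 replicate 1 (limma adjusted p = 0.017), a fit in which 13.8% of all genes passed and 10.7% of the members, STARD4 and ACACA included, and after median centring it was -0.26. The other 2 tested MVK probe sets pointed in opposite directions, with -1.19 and 0.79 in Ex4 (adjusted p = 0.33 and 0.24).

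IDI1 interconverts the isopentenyl and dimethylallyl diphosphates. Its representative probe set read 9157.4, 6315.1 and 5949.0 (WT), 10953.2, 10915.5 and 10619.6 (Ex4) and 7804.9, 9187.2 and 8011.7 (LQ). All Ex4 arrays stood above all WT and all LQ arrays. The change was 0.63 ± 0.18 (adjusted p = 0.089, interval 0.24 to 1.01) in Ex4, 0.25 ± 0.18 (adjusted p = 0.38, interval -0.14 to 0.63) in LQ and -0.38 ± 0.18 (adjusted p = 0.99987, interval -0.77 to 0.01) for LQ against Ex4. WT replicate 1 was again the highest WT array, and without it the Ex4 change passed at 0.82 (limma adjusted p = 0.0063). The second brightest IDI1 probe set had 0.53 in Ex4, where WT replicate 1 overlapped the Ex4 arrays (adjusted p = 0.15). The suffix of both probe sets (x_at) marks probes that may also bind other transcripts.

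PMVK, the next kinase after MVK, FDPS, which makes farnesyl diphosphate, and ACAT2, which makes acetoacetyl-CoA, had changes near 0 in LQ. PMVK had 0.07 ± 0.35 (adjusted p = 0.92, interval -0.70 to 0.83), and WT replicate 1 was its lowest array at 819.7. FDPS had 0.15 ± 0.20 (adjusted p = 0.63, interval -0.27 to 0.58) and ACAT2 -0.13 ± 0.17 (adjusted p = 0.65, interval -0.50 to 0.24). In Ex4 the values of PMVK, FDPS and ACAT2 were -0.24, 0.02 and -0.22 (adjusted p = 0.71, 0.95 and 0.43).

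The sterol arm had 9 tested genes, which turn squalene into cholesterol. DHCR7 carries out the last reduction to cholesterol in one of the routes. Its signal was 4153.9, 5830.3 and 4972.1 (WT), 3222.6, 3088.4 and 3609.4 (Ex4) and 3668.3, 4158.4 and 3250.8 (LQ). All 3 Ex4 arrays lay below WT, while in LQ only the highest array overlapped the lowest WT array. The log2 change was -0.58 ± 0.18 (adjusted p = 0.104, interval -0.98 to -0.18) in Ex4 and -0.43 ± 0.18 (adjusted p = 0.15, interval -0.82 to -0.03) in LQ, the latter turning to 0.16 after median centring. The second DHCR7 probe set pointed the other way, at 0.21 in Ex4 and 0.21 in LQ (adjusted p = 0.64 and 0.61). In Ex4 DHCR7 passed without WT replicate 1, at -0.70 (limma adjusted p = 0.032).

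MSMO1 removes methyl groups at carbon 4 of the sterol ring. Its signal was 9054.2, 6967.6 and 6521.6 (WT), 5347.5, 8613.4 and 8116.5 (Ex4) and 5167.1, 6013.5 and 4874.5 (LQ). LQ lay below every WT array, and Ex4 replicate 1 stood with LQ while the other 2 Ex4 arrays stood with WT. The change was -0.48 ± 0.21 (adjusted p = 0.15, interval -0.93 to -0.03) in LQ, turning to 0.10 with median centring, and -0.05 ± 0.21 (adjusted p = 0.91, interval -0.50 to 0.41) in Ex4. SC5D, which places the double bond at carbon 5, had signals of 12535.1, 11642.7 and 11811.2 (WT), 15821.4, 14251.9 and 14313.7 (Ex4) and 12330.7, 11677.6 and 10957.7 (LQ). Ex4 lay above both other groups, with 0.30 ± 0.13 (adjusted p = 0.19, interval 0.01 to 0.59) against WT. The LQ value was -0.04 ± 0.13 (adjusted p = 0.86, interval -0.33 to 0.25), and LQ against Ex4 gave -0.34 ± 0.13 (adjusted p = 0.99987, interval -0.63 to -0.05), the smallest unadjusted p in that comparison among the members' representative probe sets.

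SQLE, the monooxygenase that opens the sterol arm, had signals of 9755.0, 8637.6 and 8862.4 (WT), 7637.7, 9935.3 and 9556.9 (Ex4) and 8210.8, 7889.7 and 7533.0 (LQ). Its LQ change was -0.20 ± 0.15 (adjusted p = 0.39, interval -0.54 to 0.13), and its Ex4 change -0.01 ± 0.15 (adjusted p = 0.96, interval -0.35 to 0.32). LSS, which closes the ring to lanosterol, had -0.19 ± 0.17 (adjusted p = 0.48, interval -0.55 to 0.18) in LQ and -0.15 ± 0.17 (adjusted p = 0.6, interval -0.52 to 0.21) in Ex4. A dimmer LSS probe set read 759.8, 630.5 and 586.1 (WT), 510.6, 436.1 and 558.2 (Ex4) and 367.4, 278.2 and 261.8 (LQ), with every LQ array below every WT and Ex4 array. It had -1.09 ± 0.33 (adjusted p = 0.061, interval -1.80 to -0.38) in LQ, while the third LSS probe set had 0.12 (adjusted p = 0.82). NSDHL, HSD17B7 and EBP, which work between lanosterol and the last steps, had LQ changes of 0.00, -0.08 and 0.13 (adjusted p = 0.998, 0.84 and 0.76) and Ex4 changes of -0.13, 0.13 and 0.07 (adjusted p = 0.65, 0.75 and 0.89). The other EBP probe sets had -0.12, -0.55 and -0.83 in LQ (limma adjusted p = 0.76, 0.22 and 0.22) and -0.04, -0.65 and -0.58 in Ex4 (adjusted p = 0.94, 0.19 and 0.42). The HSD17B7 probe set may also bind other transcripts. TM7SF2, a sterol reductase, was poorly measured, with 174.9 on Ex4 replicate 1 and 953.6 and 883.7 on the other Ex4 arrays, and its Ex4 interval ran from -1.54 to 0.91.

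Among the genes of control and transport, SREBF2 had signals of 1790.4, 1780.7 and 2767.3 (WT), 1849.5, 2002.3 and 1411.7 (Ex4) and 2149.1, 2327.8 and 2102.6 (LQ). On this representative probe set LQ lay above every Ex4 array but inside the WT range. On the dimmest SREBF2 probe set every LQ array lay above every WT and Ex4 array, at 0.59 against WT and 0.58 against Ex4 (limma adjusted p = 0.21 and 0.99987). The remaining SREBF2 probe set had 0.14 and 0.07 (adjusted p = 0.75 and 0.99987). The changes on the representative were 0.08 ± 0.23 (adjusted p = 0.83, interval -0.42 to 0.58) in LQ, -0.25 ± 0.23 (adjusted p = 0.52, interval -0.75 to 0.25) in Ex4 and 0.33 ± 0.23 (adjusted p = 0.99987, interval -0.17 to 0.83) between the mutants. SREBF1 was below the array median on 6 of 9 arrays, and Ex4 alone ran from 104.6 to 753.0, so that a change of over 2-fold either way lies inside its LQ interval of -1.27 to 1.28. SCAP, the escort of SREBP, had 0.13 ± 0.19 (adjusted p = 0.67, interval -0.27 to 0.54) in LQ and -0.17 ± 0.19 (adjusted p = 0.61, interval -0.57 to 0.24) in Ex4.

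INSIG1 retains SCAP in the ER and is itself an SREBP target. Its signal was 6238.8, 5411.3 and 4890.0 (WT), 3981.3, 5119.7 and 4152.7 (Ex4) and 4787.5, 4244.2 and 3109.1 (LQ). All LQ arrays lay below all WT arrays, while Ex4 replicate 2 reached the WT range. The LQ change was -0.46 ± 0.20 (adjusted p = 0.15, interval -0.89 to -0.03), turning to 0.12 after median centring. The other 2 INSIG1 probe sets also had negative values, with LQ below every WT array on both. They were -0.77 and -0.58 (adjusted p = 0.051 and 0.23). In Ex4 the 3 INSIG1 probe sets had -0.32, -0.37 and -0.07 (adjusted p = 0.33, 0.295 and 0.91). INSIG2, the second retention protein, had 0.02 ± 0.23 (adjusted p = 0.96, interval -0.49 to 0.54) in LQ and 0.09 ± 0.23 (adjusted p = 0.83, interval -0.42 to 0.60) in Ex4.

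STARD4 carries cholesterol between membranes and is an SREBP-2 target. Its signal was 5192.2, 3890.4 and 3603.9 (WT), 4040.8, 7082.1 and 8119.5 (Ex4) and 5792.9, 6351.6 and 6410.0 (LQ). The LQ arrays stood close together above all WT arrays, and Ex4 replicates 2 and 3 stood higher still while Ex4 replicate 1 lay inside the WT range. The change was 0.56 ± 0.24 (adjusted p = 0.15, interval 0.03 to 1.10) in LQ and 0.56 ± 0.24 (adjusted p = 0.19, interval 0.02 to 1.09) in Ex4. Without Ex4 replicate 1 the Ex4 change was 0.86 and passed (limma adjusted p = 0.018). Median centring raises both mutants against WT for every gene, and under it STARD4 passed at 1.15 in LQ and 1.05 in Ex4 (limma adjusted p = 0.018 and 0.038), as did 30.2% and 19.3% of all genes.

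In the fatty acid arm, ACLY makes cytosolic acetyl-CoA from citrate and ACACA carboxylates it to malonyl-CoA, the step that commits carbon to fatty acids. The ACACA signal was 9270.0, 9658.8 and 9584.0 (WT), 7792.0, 6467.6 and 5581.6 (Ex4) and 7572.5, 6790.4 and 6458.3 (LQ). Its WT arrays differed little, and every Ex4 and LQ array lay below them. The change was -0.54 ± 0.16 (adjusted p = 0.095, interval -0.88 to -0.19) in Ex4 and -0.46 ± 0.16 (adjusted p = 0.093, interval -0.81 to -0.11) in LQ, where it had the smallest unadjusted p of the members. With each array centred on its median it was -0.05 in Ex4 and 0.13 in LQ. Without Ex4 replicate 1 it passed in Ex4 (limma adjusted p = 0.023). The second ACACA probe set had -0.08 in Ex4 and -0.65 in LQ, with intervals over 2 log2 units wide.

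The ACLY signal was 28393.6, 35784.6 and 33752.3 (WT), 22123.5, 27836.6 and 29430.0 (Ex4) and 22372.4, 26531.0 and 24307.7 (LQ). LQ lay below every WT array, at -0.42 ± 0.16 (adjusted p = 0.11, interval -0.76 to -0.08), and at 0.17 with median centring. Its Ex4 change was -0.31 ± 0.16 (adjusted p = 0.24, interval -0.65 to 0.03). Without WT replicate 1, the lowest WT array, the LQ change passed at -0.51 (limma adjusted p = 0.044). ELOVL6, which extends palmitate, had -0.25 ± 0.23 (adjusted p = 0.48, interval -0.75 to 0.24) in LQ and 0.16 ± 0.23 (adjusted p = 0.69, interval -0.33 to 0.66) in Ex4, and its LQ arrays lay below the Ex4 arrays, with a difference of -0.42 ± 0.23 (adjusted p = 0.99987, interval -0.91 to 0.08). On the representative LQ overlapped WT, while on both other ELOVL6 probe sets it lay below every WT and Ex4 array. The dimmest read 746.8, 523.6 and 557.2 (WT), 768.5, 500.5 and 756.0 (Ex4) and 356.9, 338.5 and 275.3 (LQ), with -0.87 ± 0.33 (adjusted p = 0.11, interval -1.59 to -0.16) against WT and -1.01 ± 0.33 (adjusted p = 0.99987, interval -1.72 to -0.29) against Ex4. The other had -0.47 and -0.33 (adjusted p = 0.19 and 0.99987). LPIN1, a phosphatidate phosphatase, had 0.26 ± 0.23 (adjusted p = 0.47, interval -0.23 to 0.76) in LQ and 0.23 ± 0.23 (adjusted p = 0.55, interval -0.26 to 0.73) in Ex4, and the desaturase FADS2 0.05 ± 0.38 (adjusted p = 0.95, interval -0.77 to 0.87) and -0.41 ± 0.38 (adjusted p = 0.52, interval -1.23 to 0.41).

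The probe sets of a gene often differed, as for MVK and DHCR7 above. Of 60 tested probe sets of the members, 4 passed in LQ against WT (limma), all lower, and 0 passed in Ex4 or between the mutants. Over all 32768 probe sets 6.81% passed in LQ (3.72% of all probe sets as lower), 0.0122% in Ex4 and 0.0061% between the mutants, so that 4 of 60 (6.67%) was near the background. The 4 were SCD, FASN, ACLY and IDI1, each on a probe set that was not the brightest of its gene.

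SCD makes oleate from stearate. Its representative probe set read 10610.8, 11868.7 and 10858.7 (WT), 6777.5, 14828.5 and 12188.1 (Ex4) and 7905.4, 8594.0 and 10592.6 (LQ), with -0.31 ± 0.25 (adjusted p = 0.42, interval -0.84 to 0.23) in LQ and -0.05 ± 0.25 (adjusted p = 0.91, interval -0.59 to 0.48) in Ex4. Its second brightest probe set read 8525.3, 11426.8 and 10497.9 (WT), 6126.6, 5111.3 and 4930.0 (Ex4) and 4063.4, 3831.8 and 4712.8 (LQ). On this one every mutant array lay below every WT array and every LQ array below every Ex4 array. The change was -1.26 ± 0.17 (adjusted p = 0.013, interval -1.64 to -0.89) in LQ and -0.91 ± 0.17 (adjusted p = 0.076, interval -1.28 to -0.53) in Ex4. The LQ fall was -1.40 after quantile normalization and -0.68 with median centring (adjusted p = 0.0065 and 0.037). Of the other 2 SCD probe sets the brighter had -0.89 in LQ (adjusted p = 0.0799) and the dimmer -0.18 (adjusted p = 0.79).

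FASN, the fatty acid synthase, showed the widest disagreement of these 4 genes. On the representative probe set it read 7211.1, 7532.4 and 7785.3 (WT), 6162.8, 9905.9 and 7782.7 (Ex4) and 9716.5, 8990.0 and 8055.0 (LQ), and the LQ change was 0.24 ± 0.18 (adjusted p = 0.39, interval -0.15 to 0.64). On the second, whose probes may also bind other transcripts, it read 1090.9, 2996.8 and 2105.6 (WT), 999.8, 374.5 and 448.7 (Ex4) and 298.3, 151.5 and 214.3 (LQ). In LQ the second fell by 3.06 on the log2 scale (SE 0.46, limma adjusted p = 0.015). All 3 LQ arrays lay below their array medians there, so the size of the fall is not well measured. In Ex4 this probe set had -1.75 ± 0.46 (adjusted p = 0.081, interval -2.75 to -0.76). The first and second FASN probe sets thus gave opposite signs in LQ, and the mean of both passed as lower, at -1.41 (limma adjusted p = 0.018).

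For ACLY the dimmest of 3 probe sets read 7831.7, 12594.4 and 14032.6 (WT), 7766.2, 5570.2 and 7238.3 (Ex4) and 6004.6, 6521.1 and 6355.9 (LQ), with -0.82 ± 0.22 (adjusted p = 0.045, interval -1.30 to -0.35) in LQ. The second brightest had -0.36 ± 0.17 (adjusted p = 0.18, interval -0.72 to 0.00), so all 3 ACLY probe sets had negative values. For IDI1 the third of 4 probe sets in brightness read 1958.7, 1713.5 and 1613.9 (WT), 1406.7, 806.3 and 920.4 (Ex4) and 919.4, 830.6 and 508.4 (LQ), with -1.25 ± 0.29 (adjusted p = 0.035, interval -1.89 to -0.61) in LQ, against a positive value on the representative. The IDI1 call was lost after quantile normalization and the ACLY call kept, while both were lost with median centring (limma adjusted p = 0.079 and 0.49). The ACLY call was also lost without Ex4 replicate 3 (adjusted p = 0.055) and with no filter (adjusted p = 0.055). Without the variance trend the IDI1 and ACLY calls were lost (limma adjusted p = 0.060 and 0.092) and the SCD and FASN calls kept (adjusted p = 0.045 for each), where 1.24% of all genes passed. All 4 calls were lost in each of the 5 fits without WT replicate 2, WT replicate 3 or 1 of the 3 LQ arrays. Calls were lost across the array in these fits, where 0.021% to 0.114% of all genes passed in LQ, against 7.32% with all arrays. Over these 5 fits the SCD change ran from -1.35 to -1.17.

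**Figure D3:**
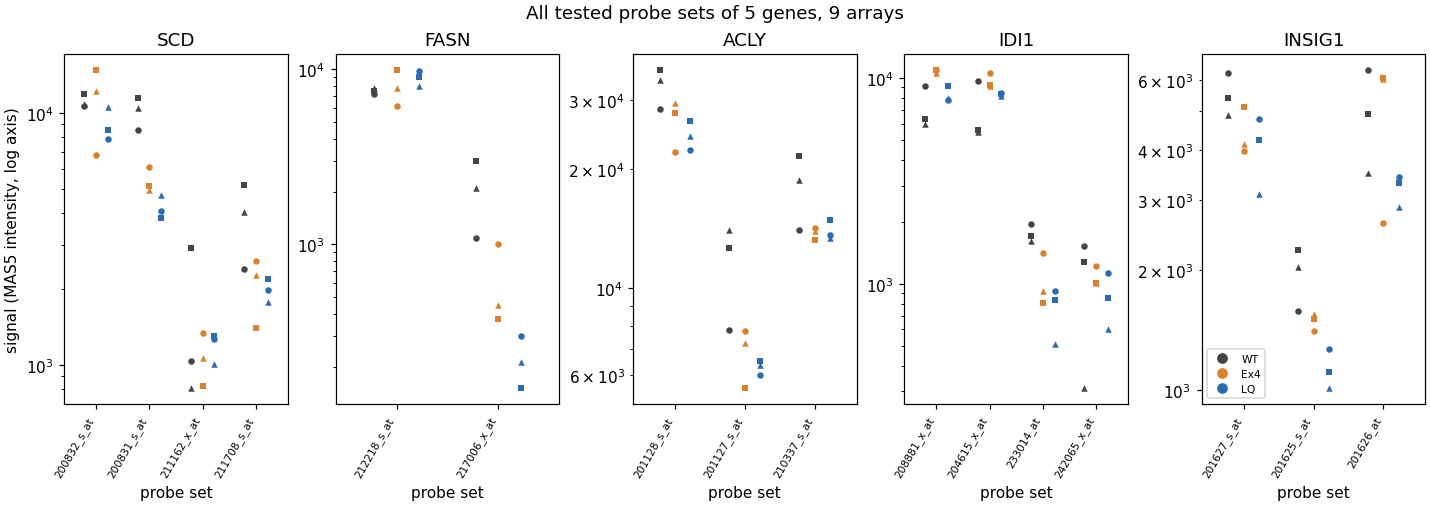
Each panel shows 1 gene, each column 1 of its tested probe sets with the representative at the left, and each point the MAS5 signal of 1 array on a log axis, coloured by group. SCD, FASN and IDI1 each have a dimmer probe set on which every WT point lies above every LQ point. On the representative, at the left, the LQ points lie just below the WT points for SCD, above them for FASN and overlap them for IDI1.

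Genes around the pathway were taken from a companion list of 45 genes of sterol transport, SREBP processing, LXR targets, fatty acid supply and glycerolipid synthesis, of which 38 were tested. In LQ 4 of the 38 passed as higher and 0 as lower (10.5% higher, against 3.69% of all genes, whose lower calls came to 3.63%). In Ex4 and between the mutants 0 passed. This list was fixed with earlier results of these data known, so its share beside all genes is a description, not a test. ERLIN1, which takes part in sterol-driven degradation in the ER, read 4089.9, 4282.9 and 3196.8 (WT), 3825.6, 6578.7 and 6675.4 (Ex4) and 8104.0, 7605.8 and 6547.6 (LQ). It rose in LQ by 0.95 ± 0.23 (limma adjusted p = 0.036), with every LQ array above every WT array. NPC1, which exports cholesterol from lysosomes, read 7883.4, 8008.5 and 7049.7 (WT), 9070.8, 9488.5 and 8347.1 (Ex4) and 11657.2, 10972.0 and 11378.8 (LQ). It rose by 0.57 ± 0.14 (adjusted p = 0.038), and LQ also lay above every Ex4 array. GPAM, the first acyltransferase of glycerolipid synthesis, read 1469.2, 1227.2 and 1051.3 (WT), 1896.1, 3110.9 and 3150.9 (Ex4) and 2168.9, 2468.8 and 2502.2 (LQ), and rose in LQ by 0.93 ± 0.24 (adjusted p = 0.042) with an Ex4 value of 1.09 ± 0.24 (adjusted p = 0.077).

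PAQR3, a Golgi anchor of SCAP, rose in LQ by 0.85 ± 0.23 with an adjusted p of 0.04997, at the threshold. With the replicate number as a block it was 0.063. ERLIN1, NPC1 and PAQR3 did not pass after quantile normalization (limma adjusted p = 0.058, 0.105 and 0.074). ERLIN1, NPC1, GPAM and PAQR3 all failed when a gene's probe sets were averaged (log2 changes of 0.36, 0.13, 0.05 and 0.25). They also failed without WT replicate 2, without WT replicate 3 and without any 1 of the LQ arrays, fits in which 0.021% to 0.114% of all genes passed. Without the variance trend all 4 failed (limma adjusted p = 0.074, 0.082, 0.071 and 0.091), and 1.24% of all genes passed. With no filter NPC1, GPAM and PAQR3 failed (adjusted p = 0.051, 0.053 and 0.0605) and ERLIN1 passed (adjusted p = 0.043), as did 4.32% of all genes. In Ex4 the smallest adjusted p of the companion list belonged to GPAM, ACACB, PAQR3 and MBTPS1. ACACB, the mitochondrial counterpart of ACACA, had -1.39 ± 0.38 (adjusted p = 0.086), and MBTPS1, the first SREBP protease, -0.77 ± 0.23 (adjusted p = 0.092). Between the mutants NPC1, ERLIN1, ERLIN2 and TMEM97 had the smallest unadjusted p, at 0.34, 0.42, -0.43 and -0.40 (adjusted p = 0.99987 for each).

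The spread between replicates differed by group. Each array was set against the mean of the other 2 in its group over the 28 genes. The standard deviation of these differences was 0.19 to 0.27 for the LQ arrays, 0.33 to 0.49 for WT and 0.39 to 0.62 for Ex4, and over all 14018 genes it was 0.43 to 0.49, 0.54 to 0.66 and 0.58 to 0.72. The 28 genes were brighter at the median than all tested genes, and the part of brightness in their smaller spread was not tested. Ex4 replicate 1 was the lowest of the 3 Ex4 arrays for 15 of 28 genes (53.6%, against 37.8% of all genes), and Ex4 replicate 2 the highest for 15 (53.6%, against 34.0%). The median of the 28 genes in Ex4 was 0.13 without Ex4 replicate 1 and -0.20 without Ex4 replicate 2, so its sign turned without Ex4 replicate 1 and kept without Ex4 replicate 2. The median of LQ against Ex4 was -0.12 without Ex4 replicate 1.

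**Figure D4:**
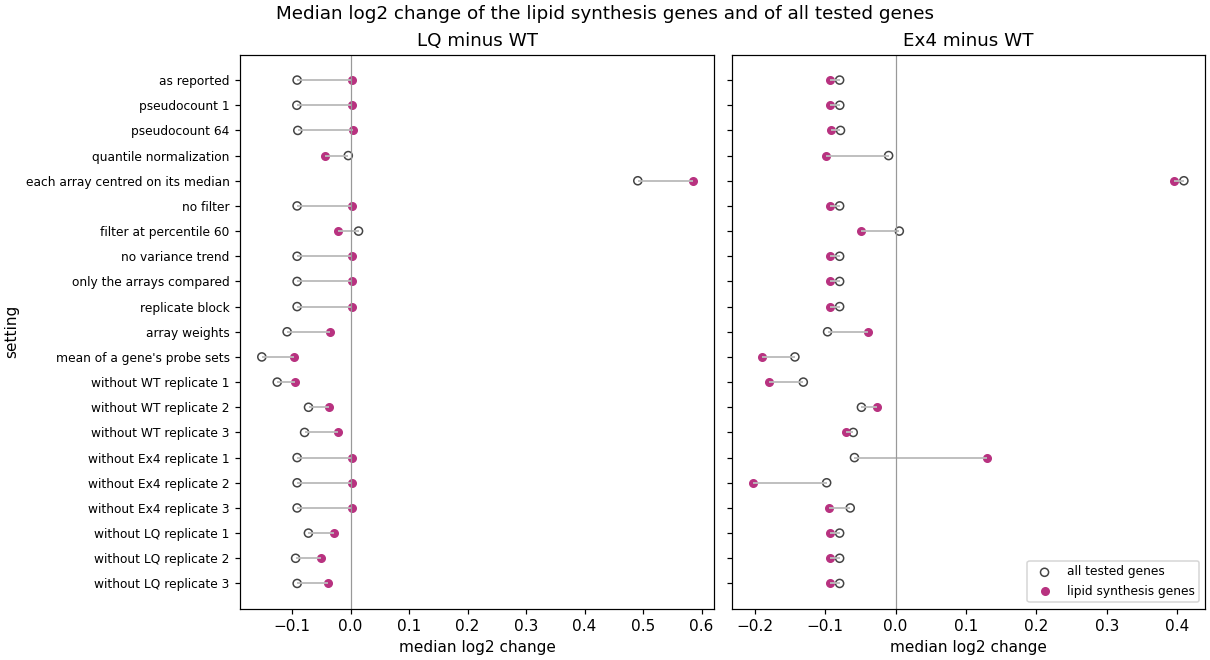
For each setting (row) the open point is the median log2 change of all tested genes and the filled point that of the 28 lipid synthesis genes, for LQ minus WT (left) and Ex4 minus WT (right). Both medians move to the right together after median centring (0.49 and 0.58 in LQ). Without Ex4 replicate 1 the Ex4 median of the lipid genes crosses 0, while that of all genes does not.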

How the data were processed

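The 9 arrays gave MAS5 signals, linear intensities per probe set that the authors deposited. MAS5 is named per the submitters' processing notes, and its version, background and scaling settings are not given in the sources used here. Groups follow the labels, with 3 arrays each. The members and gene lists were chosen with earlier results of these data known.

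Signals were taken as log2(signal + 16). Probe sets with a mean at or above percentile 40 were tested in limma 3.58.1 (R 4.3.3) with lmFit and eBayes with a variance trend over all 9 arrays, and p-values were adjusted by Benjamini-Hochberg over 32768 probe sets. A gene's representative was its probe set with the highest mean. The script was tested on simulated data. The number of arrays limits the precision. All members could be named, with full statistics for those past 0.05 or, where fewer than 6 passed, the 6 with the smallest unadjusted p, and 4 companion genes per comparison. Other scalings, pseudocounts, filters, spread models and leaving out each array were tried as alternatives. Probe sets naming several genes were left out. Motifs were searched in RefSeq promoter windows of GRCh38.p14.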

Additional observations from a re-analysis of the deposited data

How the results depend on the processing

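Over 20 alternative settings the changes of the named members, of the 4 called member probe sets and of the named companion genes kept direction and side of the threshold in 575 cases, lost the threshold in 65, gained it in 31, and reversed in 5. All 5 reversals came in LQ after median centring, at 0.10 for MSMO1, 0.16 for DHCR7, 0.12 for INSIG1, 0.17 for ACLY and 0.13 for ACACA. That setting called 6 members and 12 member probe sets in LQ (median 0.58) and 3 members and 6 probe sets in Ex4 (median 0.40), which is 21.4% and 10.7% of members against 30.2% and 19.3% of all genes, whose median moved to 0.49 and 0.41. Array weights called 3 members and 13 probe sets in LQ, and 5 and 11 in Ex4 (10.7% and 17.9% of members, against 28.6% and 18.3% of all genes). Averaging a gene's probe sets called 1 member in LQ (3.57%, against 7.88% of all genes). Leaving out 1 array gave 0 to 2 members and 0 to 11 probe sets in LQ, and 0 to 3 members and 0 to 10 probe sets in Ex4, with an Ex4 median of -0.20 to 0.13. The highest of these counts came without WT replicate 1, where 17.8% of all genes passed in LQ and 13.8% in Ex4. Without Ex4 replicate 1 there were 3 members and 7 probe sets in Ex4, and 13.8% of all genes. Wherever 1 of these fits called any member, the share of members called was below that of all genes. The cause was not tested.

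The same-numbered arrays' deviations correlated at -0.083 to 0.19, and those of differently numbered arrays of different groups at -0.23 to 0.16. These ranges overlapped, and the numbers were not taken as pairs. With the replicate number as a block 0 members passed in each comparison, with an LQ median of 0.0022 and lowest adjusted p of 0.072 in LQ and 0.090 in Ex4. Dim probe sets such as those of SREBF1, TM7SF2 and MVD limit what can be measured.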
